A study of Mus musculus with 6 samples.

Results

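Opn3 (ENSMUSG00000026525), also known as encephalopsin, is 1 of the 21959 genes in the deposited table of this series. It was chosen by its measured values, for its large and even drop after nerve injury, so its own difference between the groups is a description here and carries no test. The gene lies on chromosome 1 (175489987 to 175520342, minus strand, GRCm39), and the table gives its gene model a Length of 1913 bp.

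The series compared the paraventricular thalamus, a midline thalamic nucleus, of wild-type (WT) mice after chronic constriction injury (CCI) with that of WT mice given no treatment. CCI, done by tying loose ligatures around a nerve outside the spine, is used to model neuropathic pain, and no sham-operated group is among the samples. Poly-A RNA was sequenced in 3 CCI libraries (replicates 1 to 3) and 3 control libraries (replicates 4 to 6). The design text names 30 mice per group without saying how they were spread over the libraries, so the spread between libraries may be partly technical. Strain, age, sex and time after injury are not given in the sources used here.

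Opsins are G protein-coupled receptors that hold a vitamin A-derived chromophore, retinal, and in the eye they start phototransduction through the G protein transducin. Opn3 is expressed in many tissues outside the eye, and its transcript has been mapped to several regions of the mouse brain, selected thalamic nuclei among them. The receptor has been reported to couple to inhibitory G proteins of the Gi and Go class, which lower cyclic AMP, and to modulate the melanocortin receptors Mc1r in pigment cells and Mc4r in hypothalamic neurons, where the potassium channel Kir7.1 (gene Kcnj13) is also involved. Arrestins and receptor kinases shut such receptors off.

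The first exon of Opn3 is shared with Chml, a gene on the same strand that encodes a Rab escort protein, and the bases at the first splice junction show where their transcripts part. In the GENCODE M21 annotation, which is on GRCm38 and was used for structure alone, Opn3 has 4 exons of 1913 bases in all, as in the deposited Length. Of these, 461 bases (24.1%) of the first exon (chromosome 1, 175692170 to 175692630, GRCm38) are also exonic in Chml, in whole in 3 of its 5 annotated transcripts and in part in another. The lines below give the last 30 bases of the shared exon in lower case (chr1:175692170-175692199, minus strand, GRCm38), followed in capitals by the first 30 bases of the next exon, 5′ to 3′. The Chml line is the junction of 2 of its 5 transcripts. Of the others, Chml-203 and Chml-205 splice elsewhere and Chml-204 has 1 exon. The capitals start at chr1:175665600-175665629 for Opn3 and at chr1:175688651-175688680 for Chml.

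Opn3: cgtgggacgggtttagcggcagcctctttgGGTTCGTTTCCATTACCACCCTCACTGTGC
Chml: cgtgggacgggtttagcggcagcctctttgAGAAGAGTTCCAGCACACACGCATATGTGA

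The lower-case stretches are the same bases, so a read inside the shared exon cannot be given to either gene, whereas a read that crosses the junction can. How the authors' counting treated such reads is not given in the sources used here. The remaining 1452 exonic bases of Opn3 are not shared with Chml.

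Opn3 was far lower in every CCI library than in any control library. The deposited counts were 39, 38 and 43 in CCI replicates 1 to 3 and 445, 311 and 783 in control replicates 4 to 6. As CPM on the TMM-adjusted library total (counts scaled to a common library size), the levels were 3.91, 3.47 and 3.31 in CCI and 39.7, 36.8 and 58.6 in control. The 3 CCI libraries nearly coincide, control replicate 6 is the highest, and the groups do not overlap on any of these scales. The lowest control level was 9.41 times the highest CCI level in TMM-scaled CPM and 5.16 times in the deposited FPKM described next.

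The mean of the CCI libraries was 3.56 ± 0.309 CPM and that of the controls 45.0 ± 11.8 CPM (SD, n = 3). The fitted log2 fold change was -3.66 ± 0.25 (SE), or 12.6-fold lower in CCI. In the deposited FPKM, which corrects for length and for the plain library total, the levels were 2.55, 2.19 and 2.13 in CCI and 18.7, 13.2 and 26.5 in control. Means on that scale were 2.29 ± 0.226 and 19.5 ± 6.70 FPKM, 8.48-fold apart. The size of the drop therefore depends on the scaling, and its direction does not in the settings tried. With total counts in place of TMM the log2 fold change of Opn3 was -3.09, while that of the median gene moved to 0.65 from 0.06. Relative to the median gene Opn3 stood at -3.72 with TMM and at -3.73 with total counts.

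**Figure D1:**
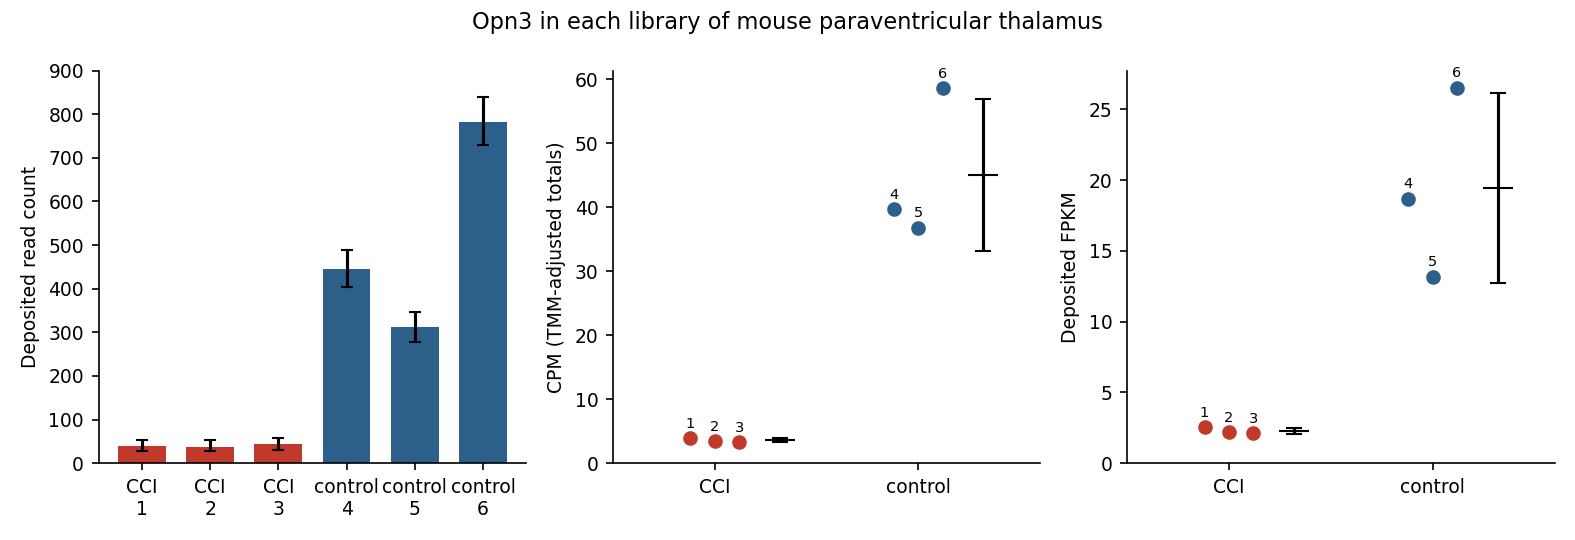
Opn3 in each library, as deposited read counts with 95% Poisson intervals (left, bars), as CPM on TMM-adjusted totals (middle) and as deposited FPKM (right). Points in the middle and right panels are libraries labelled by replicate number, and the bars beside them are mean ± SD (n = 3). The 3 CCI libraries sit at 38 to 43 counts and the 3 control libraries at 311 to 783.

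The CCI libraries differed from each other by no more than counting noise of this depth would give. Their coefficient of variation was 8.66% in CPM, and 120 counts in all leave an average counting error of 15.8% per library. The 95% Poisson intervals of the 3 counts overlap, at 27.7 to 53.3, 26.9 to 52.2 and 31.1 to 57.9, and these intervals cover counting error alone. In control the coefficient of variation was 26.3%, against an average counting error of 4.66%, so the control libraries differed by more than counting. Without control replicate 6 the log2 fold change of Opn3 was -3.43, and without control replicate 5 it was -3.82. These were the smallest and the largest drop among the fits that left out 1 library.

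Across all genes tested the 2 groups differed widely, and Opn3 is read against that background. Library totals were 7989139 to 10529886 counts in CCI and 12337448 to 15438268 in control. By edgeR's quasi-likelihood test on the 14259 genes that passed the filter, 27.0% were higher and 25.3% lower in CCI at an adjusted p of 0.05. With total counts in place of TMM these shares were 45.4% and 9.72%. In 29.4% of the genes all CCI libraries lay below all control libraries, and in 33.6% all lay above. The log2 fold change of Opn3 ranked 6 among the 14259 from the lowest, and 5 among the 12629 genes with a mean of at least 1 FPKM in either group.

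Genes of similar count and Length did not come near the drop of Opn3. A set of 144 other tested genes had a mean count of 221.2 to 345.6 and a Length of 1530 to 2391 bp, close to the 276.5 counts and 1913 bp of Opn3. They had a median log2 fold change of -0.45, with quartiles of -0.92 and 0.03. The lowest of them was at -2.51, so none reached the value of Opn3. Only 5 of the 14258 other tested genes lay lower than Opn3, so this gap follows in part from its choice by its drop. Genes of similar Length leaned downward: 1558 such tested genes had a median of -0.37, against 0.06 over all other tested genes. Of all tested genes, 11.1% are shorter than Opn3. Of the 144 genes, 55 were lower (38.2%, against 25.3% of all tested genes) and 11 higher (7.64%, against 27.0%), and with total counts 18 were lower and 29 higher, at a median of 0.13 where that of all genes was 0.65 and 9.72% of all genes were lower and 45.4% higher. The CCI libraries lay entirely below the controls in 66 of the 144 (45.8%, against 29.4%). When GC content of the transcript had to match as well (54.1% in Opn3, within 5 percentage points), 86 genes were left, with a median of -0.48 and the same lowest value of -2.51.

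The spread of Opn3 within groups was common among these genes. The median coefficient of variation of the 144 was 13.6% in CCI and 22.8% in control, against 8.66% and 26.3% for Opn3. The match was on the mean over all libraries, so the depth in CCI was unlike. Opn3 had 38 to 43 counts there, and its 6 nearest genes had at least 90 in every CCI library, with less counting error. A smaller spread than that of Opn3 was found in 31 of the 144 in CCI and in 81 in control. So the evenness for which Opn3 was picked lay inside the range of this set. The distance between its groups, for which it was picked as well, lay outside it.

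**Figure D2:**
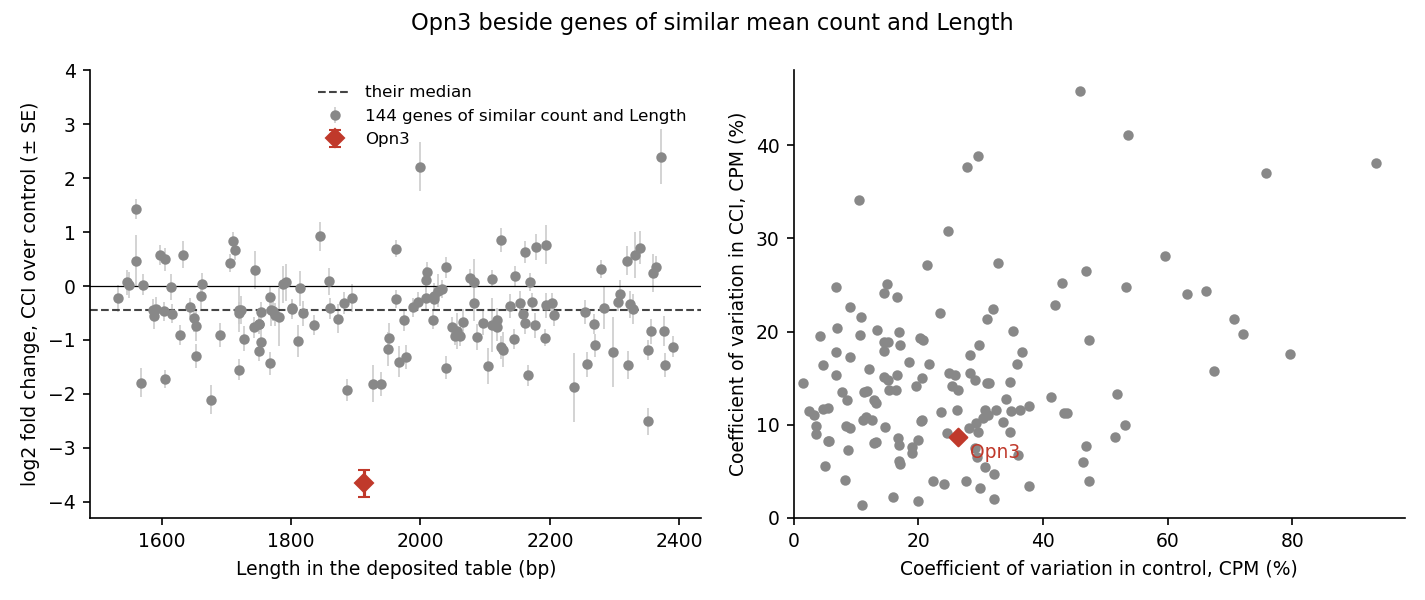
Left, log2 fold change (CCI over control, ± SE) against Length in bp for the 144 genes of similar mean count and Length (grey) and Opn3 (red diamond); the dashed line is their median of -0.45. Right, coefficient of variation of CPM within CCI and within control for the same genes, where Opn3 lies inside the cloud at 8.66% and 26.3%.

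The 6 genes nearest to Opn3 in count and Length show the range of that set. Slc25a33, a mitochondrial carrier gene, fell by 1.92 ± 0.20 on the log2 scale (adjusted p = 0.000251), from 31.1, 36.8 and 43.3 CPM in control to 10.4, 8.22 and 10.6 in CCI. Tex30 fell by 1.81 ± 0.34 (adjusted p = 0.00273), with 28.5, 64.8 and 27.2 CPM in control and 11.4, 12.5 and 10.2 in CCI. Cd59a, a complement inhibitor gene, fell by 1.02 ± 0.30 (adjusted p = 0.0202). Its adjusted p was 0.0723 without CCI replicate 1 and 0.0642 without CCI replicate 3, and 0.234 with total counts, where the change was -0.38. Rbmx2 (-0.60 ± 0.27, adjusted p = 0.0867), Zfp771 (0.12 ± 0.23, adjusted p = 0.684) and the sterol synthesis gene Mvd (0.09 ± 0.26, adjusted p = 0.788) did not pass, though Rbmx2 was at -0.85 and passed (adjusted p = 0.0228) without control replicate 4. Control replicate 5 was the highest control library in Tex30, Rbmx2 and Cd59a and the lowest in Zfp771 and Mvd.

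Chml, which shares the first exon, did not follow Opn3. Its counts were 68, 83 and 95 in CCI and 61, 53 and 105 in control, or 7.24 ± 0.388 and 6.52 ± 1.23 CPM (SD, n = 3). The groups overlap, and the log2 fold change was 0.15 ± 0.24 (adjusted p = 0.623). With total counts Chml was at 0.74 and passed as higher (adjusted p = 0.0402), and so it did on log2(FPKM + 1) (0.37, adjusted p = 0.0224) and on log2(FPKM + 0.1) (0.69, adjusted p = 0.0353). In these settings, in the same order, the median gene stood at 0.65, 0.42 and 0.65. With total counts 45.4% of all tested genes passed as higher. The ratio of Opn3 to Chml counts needs no scaling between libraries. It was 0.574, 0.458 and 0.453 in CCI and 7.30, 5.87 and 7.46 in control. The gap between the groups follows from the large and even drop for which Opn3 was chosen, so the ratio is a description.

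**Figure D3:**
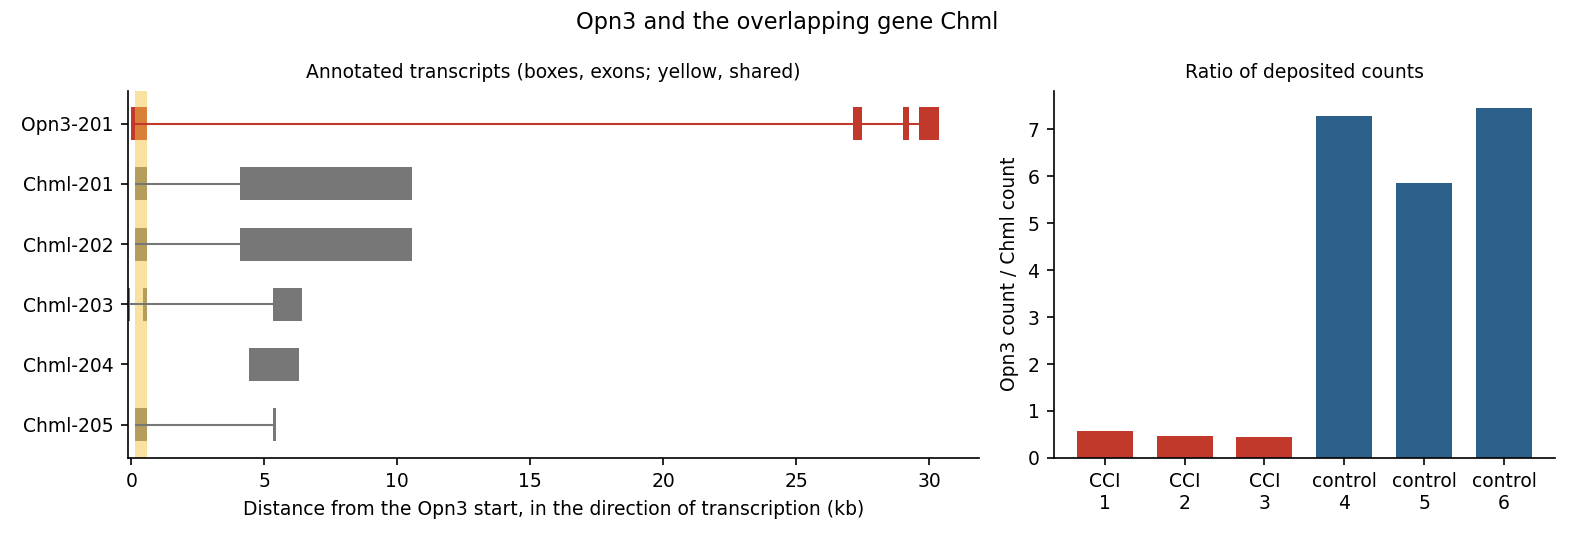
Left, exons (boxes) of the annotated Opn3 and Chml transcripts by distance from the Opn3 start in kb, with the 461 shared bases of the first exon in yellow. Right, ratio of the deposited Opn3 count to the Chml count in each library, 0.453 to 0.574 in CCI and 5.87 to 7.46 in control. The gap follows from the choice of Opn3 by its drop.

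Of the 7 genes at or next to the locus, 4 could be tested and 2 of these fell, against 25.3% of all tested genes. Kmo, the kynurenine 3-monooxygenase gene, runs towards Opn3 from the other strand and ends 304 bp from it. It fell by 1.26 ± 0.43 on the log2 scale (adjusted p = 0.0359), from 27, 22 and 75 counts in control to 16, 12 and 23 in CCI. Control replicate 6 is the high library in Kmo as in Opn3. Without it Kmo was at -0.74 (adjusted p = 0.167), and it did not pass without any 1 of the CCI libraries either (adjusted p = 0.0685 to 0.117), nor with total counts (-0.68, adjusted p = 0.238). No strand setting of the counting is given, so reads past the ends of Kmo and Opn3 cannot be told apart by strand.

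Rgs7, a regulator of G protein signalling that speeds the shut-off of Gi and Go proteins, lies 169920 bp from Opn3 on the same side. It fell by 1.27 ± 0.18 (adjusted p = 0.000811), from 92.0 ± 18.5 to 38.0 ± 2.22 CPM. Fh1, the fumarate hydratase gene, was at -0.51 ± 0.20 and did not pass (adjusted p = 0.0529), but it did with DESeq2 size factors (-0.57, adjusted p = 0.0383). On the other side of Opn3, Wdr64 had 1 count over all libraries, Becn2 had 2 and Exo1 had 21, too few to be tested.

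None of 6 other opsin genes was detected at a level near that of Opn3 in control. All 6 were in the table and none passed the filter on low counts. Melanopsin (Opn4), the opsin of light-sensitive retinal ganglion cells, had 6, 13 and 25 counts in CCI and 7, 2 and 2 in control. The cone opsin genes Opn1sw (1, 2 and 9 in CCI, 3, 9 and 3 in control) and Opn1mw (2, 4 and 2 in CCI, 4, 2 and 7 in control) overlapped between the groups.

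Peropsin (Rrh) had 8, 5 and 5 counts in CCI and 8, 8 and 0 in control. Neuropsin (Opn5), the violet-sensitive opsin, had 0, 1 and 0 in CCI and 2, 0 and 0 in control. The retinal G protein-coupled receptor gene Rgr had 0, 1 and 5 in CCI and none in control, where 0 counts over the group allow a level of up to 0.0746 CPM on plain totals. Per length, the highest value of any of these genes was 0.802 FPKM (Opn4 in CCI replicate 3), below the lowest Opn3 level of 2.13 FPKM. With no filter, edgeR passed 0 of the 6 and 1 (Opn4) had an unadjusted p under 0.05, as with the DESeq2 Wald test. Opn4 was at 1.85 with no filter (adjusted p = 0.0516), 2.18 without CCI replicate 1 (adjusted p = 0.0334) and 2.65 without control replicate 4 (adjusted p = 0.0243). It did not pass without control replicate 5 (1.72, adjusted p = 0.0606) or without control replicate 6 (1.46, adjusted p = 0.126). Nor did it pass with the DESeq2 Wald test (1.83, adjusted p = 0.0612).

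Of the counts over Opn3 and these 6 genes, Opn3 made up nearly all in control and a smaller share in CCI. In control it supplied 94.9% of 469, 93.7% of 332 and 98.5% of 795 counts. In CCI it supplied 69.6% of 56, 59.4% of 64 and 48.3% of 89. The 95% Wilson intervals, which cover counting error alone, ran from 90.5% upward in control and up to 80.1% in CCI. The lower share in CCI follows from the drop for which Opn3 was chosen. The other 6 genes together gave 12 to 24 counts per control library and 17 to 46 per CCI library.

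Genes that handle the chromophore went both ways. Of 27 listed, 20 could be tested, of which 3 rose and 7 fell, at a median log2 fold change of 0.12, where 27.0% and 25.3% of all tested genes did so and their median was 0.06. With total counts the same list had 9 members higher and 5 lower, where 45.4% and 9.72% of all genes were. In 7 of the 20 all CCI libraries lay below the controls and in 5 above, against 29.4% and 33.6% of all genes. The list summed to 1255 ± 490 CPM in control, where replicate 5 was the highest at 1821, and to 492 ± 26.9 CPM in CCI (SD, n = 3).

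The members that fell were Dhrs3, Dhrs4, Rdh10, Rdh11, Rdh13, Rdh14 and Aldh1a1. The Rdh and Dhrs enzymes belong to a family that includes enzymes passing the chromophore between its alcohol and aldehyde forms, and in the same family Rdh5 rose and Rdh12 did not pass (0.59 ± 0.28, adjusted p = 0.102). Dhrs3, a retinal reductase gene, fell by 1.82 ± 0.22 (adjusted p = 0.000388), from 111, 176 and 109 CPM in control to 37.9, 40.1 and 34.2 in CCI. Aldh1a1, which oxidises retinal to retinoic acid, fell by 1.73 ± 0.27 (adjusted p = 0.00112), from 190, 346 and 189 CPM to 68.9, 85.4 and 64.2. Rdh13 had the lowest log2 fold change of the list, -1.98 ± 0.38 (adjusted p = 0.0029). Its control level was 353, 968 and 386 CPM against 144, 146 and 143 in CCI. Control replicate 5 is the high library in all of these 3 genes, and without it Rdh13 was at -1.38, Dhrs3 at -1.58 and Aldh1a1 at -1.41.

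Rdh14 fell by 1.17 ± 0.15 (adjusted p = 0.000509), with 48.6, 52.8 and 44.1 CPM in CCI and 101.3, 110.0 and 117 in control. Rdh10, which makes retinal in retinoic acid synthesis, fell by 1.22 ± 0.21 (adjusted p = 0.00181), and Rdh11 by 0.92 ± 0.16 (adjusted p = 0.00203), with no overlap between groups in either. Rdh11 was at -0.33 with total counts and did not pass (adjusted p = 0.159). The 3 members that rose are named after their values were seen. Cyp26b1, which degrades retinoic acid, rose by 3.40 ± 0.76 (adjusted p = 0.0062) from a low 0.357, 0.473 and 0.224 CPM to 1.7, 1.64 and 7.47, with CCI replicate 3 far above the others. Without that library Cyp26b1 was at 2.27 (adjusted p = 0.0128). Rdh5 and Rlbp1, a retinol dehydrogenase and a retinal carrier of the visual cycle, rose by 1.09 ± 0.32 (adjusted p = 0.0201) and 0.86 ± 0.23 (adjusted p = 0.0127). Rdh5 had an adjusted p of 0.0766 without CCI replicate 2 and Rlbp1 of 0.0516 without CCI replicate 1. The visual cycle genes Rpe65 and Lrat had 25 and 22 counts over all libraries and were not tested.

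Among G protein alpha subunits of the Gi, Go, Gz and transducin classes, 3 of 5 tested fell and none rose, at a median of -0.83, where 25.3% of all tested genes fell and 27.0% rose. Gnai1 fell by 2.12 ± 0.24 (adjusted p = 0.000314), from 314, 270 and 422 CPM in control to 67.3, 67.8 and 96.9 in CCI. Gnai3 fell by 2.02 ± 0.17 (adjusted p = 0.000181), from 133, 172 and 154 CPM to 34.7, 42.1 and 36.1. Gnaz fell by 0.83 ± 0.19 (adjusted p = 0.00686), but with total counts it was at -0.21 (adjusted p = 0.252). Gnao1 (0.39 ± 0.16, adjusted p = 0.0722) and Gnai2 (0.36 ± 0.17, adjusted p = 0.0966) did not pass, and with total counts both passed as higher, at 0.98 and 0.95, so that 2 members were higher and 2 lower, where 45.4% and 9.72% of all genes were. The transducin genes Gnat1 and Gnat2 had 1 and 24 counts over all libraries, and Gnat3 had none, which allows a level of up to 0.0442 CPM on plain totals.

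**Figure D4:**
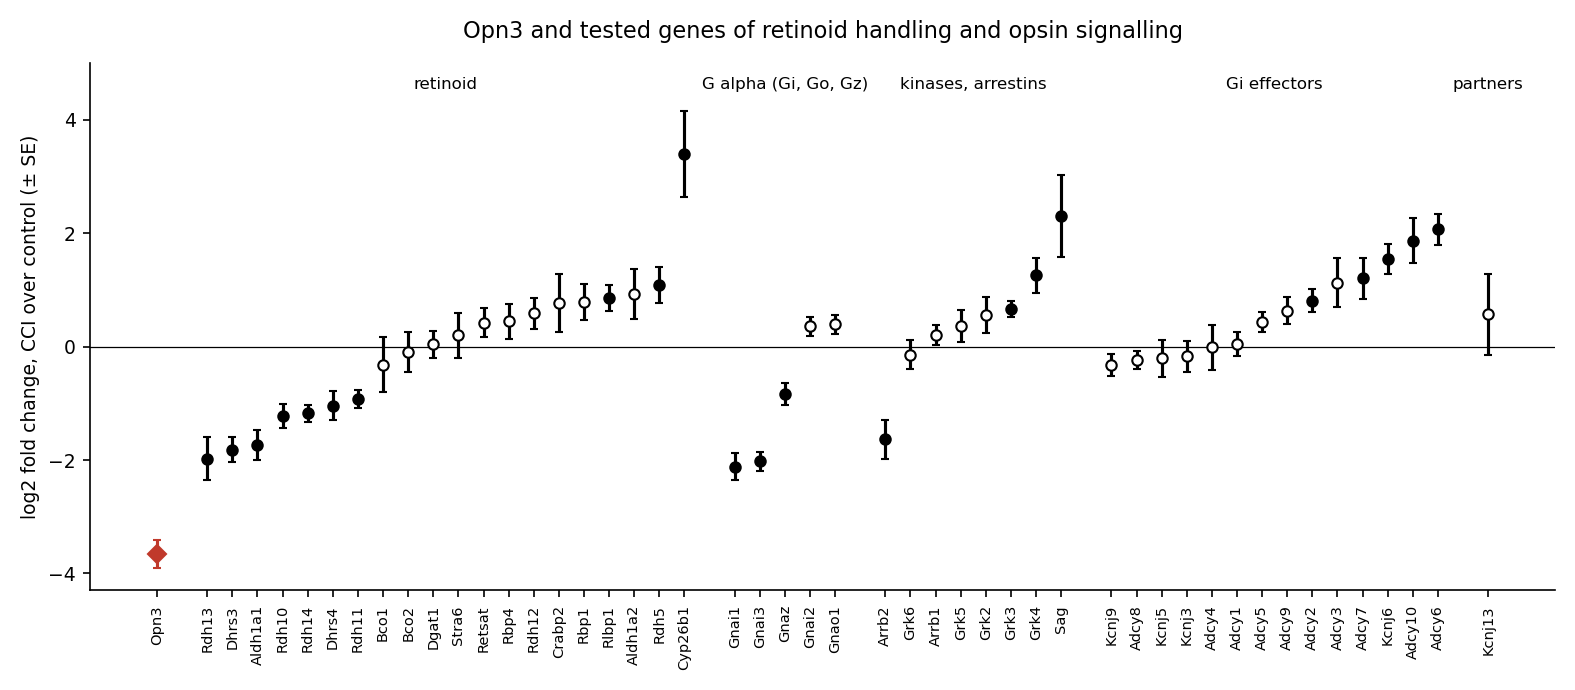
Log2 fold change (CCI over control, ± SE) of Opn3 (red) and of the tested members of each list, with filled points for members that passed an adjusted p of 0.05 and open points for those that did not. The lists are those of retinoid handling and opsin signalling, without the tissue markers. Opn3, chosen for its large drop, lies at -3.66, below every member drawn, the lowest being Gnai1 at -2.12.

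Of the receptor kinases and arrestins 8 were tested, of which 1 fell, 3 rose and the others stayed short of the threshold, at a median of 0.46. The shares of all tested genes were 25.3% and 27.0%, so these counts stand near the background. With total counts 6 were higher and 0 lower, where 45.4% and 9.72% of all genes were. Arrb2, which encodes beta-arrestin 2, fell by 1.64 ± 0.35 (adjusted p = 0.00469), from 28.8, 13.5 and 24.8 CPM in control to 7.11, 4.75 and 9.71 in CCI. With total counts it was at -1.09 (adjusted p = 0.0549). The other ubiquitous arrestin gene, Arrb1, was at 0.21 ± 0.18 (adjusted p = 0.351). The kinase genes Grk3 and Grk4 rose by 0.66 ± 0.14 (adjusted p = 0.00476) and 1.26 ± 0.30 (adjusted p = 0.00847).

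Sag, the rod arrestin gene, had 15, 18 and 27 counts in CCI and 5, 6 and 0 in control, and rose by 2.30 ± 0.72 (adjusted p = 0.0265). It did not pass without any 1 of the CCI libraries or without control replicate 4 (adjusted p = 0.0529 to 0.0856), and it was at 3.0 without control replicate 5 and 1.6 without control replicate 6. Its counts are close to the limit of what can be tested here. Grk2 (0.56 ± 0.32, adjusted p = 0.17) and Grk5 (0.37 ± 0.28, adjusted p = 0.292) did not pass.

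Adenylyl cyclases and G protein-gated potassium channels are families that include effectors of Gi proteins, though not every member need respond to Gi. Of 14 such genes 5 rose and none fell, at a median of 0.53, where 27.0% of all tested genes rose and 25.3% fell. With total counts 8 were higher and 0 lower, where 45.4% and 9.72% of all genes were. Adcy6 rose by 2.07 ± 0.28 (adjusted p = 0.000598), from 2.5, 3.19 and 4.34 CPM in control to 12.1, 13.5 and 16.8 in CCI. The channel gene Kcnj6 rose by 1.55 ± 0.26 (adjusted p = 0.00167), Adcy10 by 1.87 ± 0.40 (adjusted p = 0.00498) and Adcy2 by 0.81 ± 0.20 (adjusted p = 0.0104). Adcy7 rose by 1.21 ± 0.36 (adjusted p = 0.0206). That call was lost when control replicate 6 was left out, and likewise for CCI replicate 1 and CCI replicate 2 (adjusted p = 0.0713 to 0.0847). Adcy9 was at 0.64 ± 0.24 (adjusted p = 0.0522).

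Of the 3 genes of reported partners, Kcnj13 alone could be tested, and it did not pass (0.57 ± 0.71, adjusted p = 0.523). Its counts were 153, 203 and 208 in CCI and 137, 177 and 14 in control, where replicate 6 stands far below. Kcnj13 is strongly expressed in choroid plexus, and the summed level of 6 choroid plexus and ependyma markers was 291 CPM in control replicate 6 against 2725 and 4107 in the other controls and 2003 to 2881 in CCI. Its part in the Kcnj13 value was not tested. Mc4r had 7, 6 and 26 counts in CCI and 1, 3 and 4 in control. It was at 2.11 with no filter (adjusted p = 0.0438) and 2.45 without CCI replicate 2 (adjusted p = 0.0307), and did not pass with the DESeq2 Wald test. Mc1r had 1 count over all libraries.

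Markers of other cell types and regions also differed between the groups, and in bulk tissue fewer cells of a type cannot be told apart from less RNA per cell. Of 9 genes of midline and paraventricular thalamic neurons, 6 fell and none rose (5 and 0 with total counts), where 25.3% of all tested genes fell and 27.0% rose (9.72% and 45.4% with total counts). Their summed level was 1151 to 1875 CPM in CCI and 4426 to 7243 in control, 3.42-fold apart in the means. None of the 9 was at 0. The lowest of them, Necab1, was at -2.11 ± 0.28, and the lowest of all tested markers, the habenula gene Pou4f1, at -2.40 ± 0.63. Opn3 at -3.66 lay below each, but it was chosen for its large drop, so this order is a description. Within control, replicate 5 had the highest thalamic sum and the lowest Opn3 level. That sum was mostly Tcf7l2, at 4760 CPM in replicate 5 against 1712 and 2041 in replicates 4 and 6. Slc17a6, Gbx2 and Nts were also highest in replicate 5, whereas Calb2, Lef1, Drd2 and Hcrtr1 were lowest there and Necab1 lay between. Within CCI, replicate 3 had the lowest thalamic sum and the lowest Opn3 level, but the Opn3 levels there differed by no more than counting noise.

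The next lists stand against 25.3% of all tested genes lower and 27.0% higher (9.72% and 45.4% with total counts). Of 6 habenula genes 4 fell (2 with total counts), with sums of 186 to 521 CPM in CCI and 527 to 1675 in control. Of 7 hippocampal and cortical genes 6 rose (7 with total counts), with sums of 160 to 193 CPM in CCI and 57.8 to 74.7 in control. Of 8 astrocyte genes 2 rose and 3 fell, and with total counts 3 were higher and 2 lower (3505 to 4216 CPM in CCI, 8067 to 10767 in control), and of 6 oligodendrocyte genes 4 rose, or 5 with total counts (16751 to 22131 against 6404 to 13204). The part of these differences in the Opn3 value was not tested. Higher members numbered 2 of 6 striatal genes, 1 of 5 microglial, 1 of 6 of choroid plexus and ependyma and 1 of 4 endothelial ones (3, 3, 2 and 1 with total counts), against 27.0% of all tested genes (45.4% with total counts), and no member of these lists was lower.

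Of 5 retina and pineal markers, Crx and Asmt had no count in any library, and the list, which holds Sag as well, summed to 2.19 to 2.62 CPM in CCI and 0.0748 to 1.249 in control. Sag was the 1 member that could be tested. Hypothalamic neuron markers summed to 5.78 to 12.8 CPM in CCI and 4.86 to 6.26 in control. Of 3 tested 1 rose, where 27.0% of all tested genes did.

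The genes whose pattern over the 6 libraries was most like that of Opn3 were found by the root mean square difference of centred log2 CPM, among 12628 genes with at least 1 FPKM in either group. They were picked for the same contrast, so their values are a description. Mpv17l, which encodes a peroxisomal and mitochondrial membrane protein, was closest at a difference of 0.22. It stood at 45.2, 47.9 and 47.8 CPM in CCI and 397, 416 and 514 in control, with control replicate 6 the highest as in Opn3. It was the only gene within a difference of 0.25.

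The keratin gene Krt1 came next at 0.28, with 5, 5 and 7 counts in CCI and 91, 91 and 133 in control. Trim40 followed at 0.34, with 5, 4 and 10 counts in CCI and 82, 55 and 96 in control. Both are low-count genes whose CCI values rest on few reads. Fnta, the shared alpha subunit gene of the protein prenyltransferases, was at 0.39, with 44.4, 53.6 and 69.3 CPM in CCI and 475, 705 and 575 in control. The neuronal vesicle gene Nrsn1 (0.39), the cilium transport gene Ift57 (0.42), the 14-3-3 protein gene Ywhah (0.44) and the glycine receptor beta subunit gene Glrb (0.45) completed the 8. The log2 fold changes of Nrsn1, Ift57, Ywhah and Glrb ran from -2.93 in Nrsn1 to -2.75 in Glrb. Those of the others of the 8 were lower, from -4.23 in Krt1 to -3.24 in Mpv17l. Ranked by Pearson correlation instead, which ignores the size of the drop, none of these 8 was among the first 8, and 163 genes had a correlation above 0.99 with Opn3 over the 6 libraries.

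**Figure D5:**
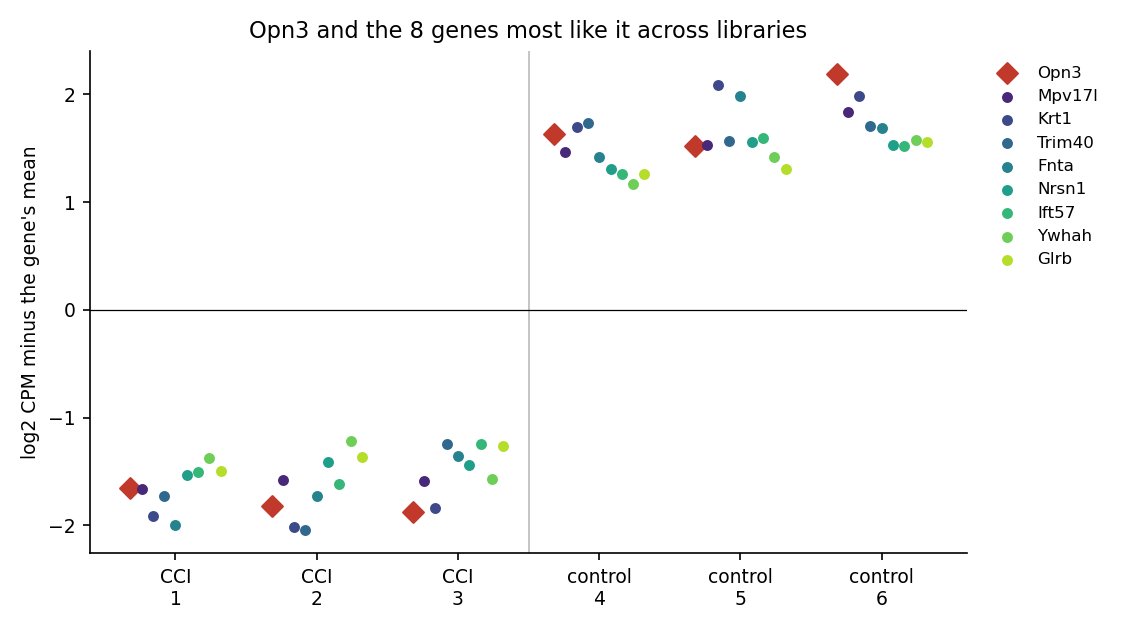
Log2 CPM (prior count of 2) minus each gene's mean in the 6 libraries, for Opn3 (red diamonds) and the 8 genes most like it. Every CCI point lies below 0 and every control point above, and Opn3 is the highest of the 9 in control replicate 6 at 2.19.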

How the data were processed

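Per the file headers, the deposited table gives a read count and an FPKM value per gene and library, with coordinates and Length. The submitters' processing notes name the GRCm39 build, HTSeq 0.9.1, HISAT2 2.1.0, StringTie 2.2.1, DESeq 1.38.3 and fastp 0.22.0, with no strand or counting mode. Dividing each count by Length and column total gave the deposited FPKM back. Groups came from the labels.

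All genes that passed filterByExpr were fitted with edgeR 4.0.16 (TMM scaling, quasi-likelihood F-test) in R 4.3.3, with Benjamini-Hochberg adjustment over the 14259 genes and a threshold of 0.05. Standard errors were taken as the size of the log2 change over the square root of F. Alternatives were DESeq2 size factors, total counts, no filter, a filter of CPM 5 in 3 libraries, the DESeq2 1.42.0 Wald test, limma 3.58.1 on log2(FPKM + 1) and log2(FPKM + 0.1), and each library left out. Summaries used scipy 1.17.1, pandas 2.3.3 and numpy 2.4.6 under Python 3.11.15. The code was tested on simulated counts.

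The gene, lists and rules were chosen with earlier results of these data known. The naming rule took all listed opsins and reported partners, up to 6 members of each other list by smallest p, 3 neighbours on each side and overlapping genes, the 8 most alike and the 6 nearest in count and Length, leaving out Gm, Rik and accession-like symbols. The GC match and the alternatives for neighbouring genes were chosen after seeing the data. Exon structure, transcript sequence and GC content came from GENCODE M21 (GRCm38), matched by Ensembl identifier for 99.9% of tested genes. No protein sequence was used here, and a further listed gene is not reported here.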

Additional observations from a re-analysis of the deposited data

How the results depend on the processing

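No paired analysis was possible because the CCI and control libraries share no replicate numbers. Opn3 was lower in CCI in all 13 alternatives. Its log2 fold change was -3.09 with total counts, -2.58 on log2(FPKM + 1) and -2.98 on log2(FPKM + 0.1), and it moved by less than the spread between libraries in the other 10. The added pseudocount lowers the fold of a gene at 2 FPKM by construction. Against genes of similar count and Length, Opn3 stood at -3.21 and at -2.74 on log2(FPKM + 1), and from -3.39 to -2.96 in the other 11 alternatives. Genes passing as higher numbered 6477 with total counts, 6785 on log2(FPKM + 1) and 6632 on log2(FPKM + 0.1), against 3853, and genes passing as lower 1386, 1374 and 1345, against 3608.

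With the stricter filter 5 G protein alpha subunit genes passed (2 higher, 3 lower), against 3, and 1 neighbouring gene, against 2. Leaving out 1 library gave 1 to 3 neighbouring genes. Of the adenylyl cyclase and G protein-gated potassium channel genes 8 passed with total counts and on both FPKM scales, against 5. Of the opsins, leaving out 1 library gave 0 to 1 passing genes, and of the reported partners 0 to 1, with 1 with no filter. Ranking by Pearson correlation shared 0 of the 8 genes most like Opn3. The log2 fold changes of all genes shifted by a median of 0.59 with total counts. On log2(FPKM + 1) and log2(FPKM + 0.1), which rest on plain library totals as well, they shifted by 0.51 and 0.60. Apart from what the pseudocount does by construction, the cause of these changes was not tested. Without control replicate 5 the retinoid list had 7 higher and 7 lower members. Among all tested genes that fit passed 4560 as higher and 4415 as lower, against 3853 and 3608 with all libraries. Opn3 rests on 38 to 43 counts per CCI library, which limits its level there.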
